A study of Mus musculus with 6 samples.

Results

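The genes of the mitochondrial genome were taken as all genes that GENCODE M21 places on the mouse mitochondrial chromosome, whose symbols start with mt-. There are 37 of them: 13 mRNA genes, 2 rRNA genes and 22 tRNA genes. All 13 mRNA genes had counts, out of 31053 genes counted in all. The 2 rRNAs and the 22 tRNAs had no rows among the counted genes and could not be analysed. Shares are therefore given for the mRNAs, grouped by the respiratory complex that they encode, in place of shares of the 3 RNA classes. Quiescent muscle stem cells (qMuSCs), the resting stem cells of skeletal muscle, were isolated by FACS from uninjured hindlimb muscles of mice aged 3 to 4 months, and RNA was sequenced with a library for each mouse. The WT group held 3 mice of the genotype Pax7nGFP/+;Pax7+/+;Dio2Fl/Fl (c124, c129 and c130). The cD2KO group held 3 mice of the genotype Pax7nGFP/+;Pax7-CreERT2/+;Dio2Fl/Fl (fl125, fl126 and fl128). All 6 mice were given tamoxifen and carried the nuclear GFP reporter and floxed alleles of Dio2, the gene of the thyroid hormone-activating enzyme D2. The WT mice had no Cre, so that loss of Dio2 and the presence of Cre in Pax7-expressing cells cannot be told apart.

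Mitochondrial DNA is a small circle that is transcribed from both strands into long precursors. These are cut, mostly at the tRNAs, into mRNAs, rRNAs and tRNAs. Its mRNAs encode core subunits of the respiratory complexes I, III, IV and V, and all other subunits come from nuclear genes. Of the mRNAs, mt-Nd6 alone is encoded on the other strand from the rest and is read from the light-strand promoter, whereas the other mRNAs are read from the heavy-strand promoter. Quiescent muscle stem cells are known for a low content of mitochondria, which rises when they are activated.

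Fragments of the mitochondrial genome have also been inserted into nuclear chromosomes, and a read from such a copied stretch fits both places. In GENCODE M21 (mm10), 17 nuclear genes carried a copy of a mitochondrial mRNA gene at 90% identity or more over at least 100 bases, and 11 of the 13 mRNA genes had such a copy. None of the 17 copies had a row among the counted genes. Of these copies, 7 followed each other on the minus strand of chromosome 1 between 24611535 and 24616188, in the order of the mitochondrial genome from the end of mt-Co1 to the first part of mt-Nd4. Together they matched 4136 mitochondrial bases, spread over a stretch of 4653. Only mt-Co1 and mt-Nd3 differed from their chromosome 1 copies within the matched bases, by 1 mismatch each. The sequences at these mismatches show how nearly alike the copies are, and the capital marks the base that differs:
mt-Co1, bases 1063 to 1096: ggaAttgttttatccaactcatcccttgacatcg
Gm29216, bases 10 to 43: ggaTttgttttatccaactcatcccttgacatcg
mt-Nd3, bases 1 to 33: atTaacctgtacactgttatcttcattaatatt
Gm28438, bases 1 to 33: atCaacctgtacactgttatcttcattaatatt

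The copies of mt-Co2 (Gm28661), mt-Atp6 (Gm10925), mt-Co3 (Gm28437), mt-Nd4l (Gm10222) and mt-Nd4 (Gm28439) had no mismatch. That of mt-Nd4 covered only its first 876 bases of 1378. The bases around the end of the match are shown because mt-Nd4 was the mRNA with the highest level, with capitals for those that lie past the annotated copy:
mt-Nd4, bases 847 to 906: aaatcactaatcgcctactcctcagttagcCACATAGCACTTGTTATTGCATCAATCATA

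Some mitochondrial genes also overlap each other, which bears on how their reads can be counted. mt-Atp8 and mt-Atp6 share 43 bases, from 7927 to 7969 of the mitochondrial chromosome. mt-Nd4l and mt-Nd4 share 7 bases, from 10167 to 10173. mt-Nd5 and mt-Nd6 share 14 bases, from 13552 to 13565, on opposite strands. The overlaps of mt-Atp8 and of mt-Nd5 are shown on the plus strand with flanking bases, and capitals mark the bases shared by both genes:
mt-Atp8 and mt-Atp6: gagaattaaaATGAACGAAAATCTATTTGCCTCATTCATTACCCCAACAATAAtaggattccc
mt-Nd5 and mt-Nd6: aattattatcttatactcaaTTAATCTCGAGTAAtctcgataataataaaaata

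Total counts were 2184073 to 3897787 per mouse, and 3 counts, taken as the lowest count told apart from 0, equalled 0.773 to 1.37 CPM. CPM are counts scaled to a common library size, with edgeR's TMM factors applied. Dio2, the targeted gene, had 21, 5 and 10 counts in c124, c129 and c130, all WT, against 15, 5 and 1 counts in the libraries labelled fl125, fl126 and fl128. The groups overlapped, the highest Dio2 CPM of all was in the library labelled fl125, and the gene was below the minimum for testing. All 10 muscle stem cell markers were present, with a sum of 1588 to 2238 CPM in the WT group and of 2466 to 3327 CPM in the cD2KO group. Markers of other cell types were present as well. The 12 immune markers summed to between 3969 and 7439 CPM for WT, against 214 to 2724 CPM for cD2KO, with the lowest sum in the library labelled fl125. The 10 mural cell markers summed to between 5514 and 9403 CPM for WT, against 11255 to 16476 CPM for cD2KO, and the 10 endothelial markers to 256 to 365 and 204 to 254 CPM. Sums that overlapped between the groups ranged over the 6 mice from 3437 CPM in the library labelled fl125 to 22422 CPM in fl128 for 5 erythroid markers, from 4367 to 6775 CPM for 7 Schwann cell markers and from 2223 to 5416 CPM for 10 markers of fibroadipogenic progenitors. None of these lists had a gene at 0 in every mouse. In bulk RNA, fewer cells of a type and less RNA per cell cannot be told apart, and the part of these other cells in the mitochondrial counts was not tested.

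The share of all counts taken by the 13 mitochondrial mRNAs overlapped between the groups. Their share was 15.8% in c124, 9.09% in c129 and 11.3% in c130, and it was 12.6%, 13.5% and 13.1% in the libraries labelled fl125, fl126 and fl128. The cD2KO mice lay close together, between the lowest and the highest WT mouse. The mean share was 12.1% ± 3.44 in WT and 13.1% ± 0.423 in cD2KO qMuSCs (SD, n = 3 mice each). The difference of 1.01 percentage points was smaller than the SD of the WT mice but rested on single WT mice: it was -0.484 without c129 and 2.89 without c124. The exact 95% binomial interval of each share, which covers counting error only, was far narrower than the spread between WT mice, for example 9.05% to 9.12% in c129.

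**Figure D1:**
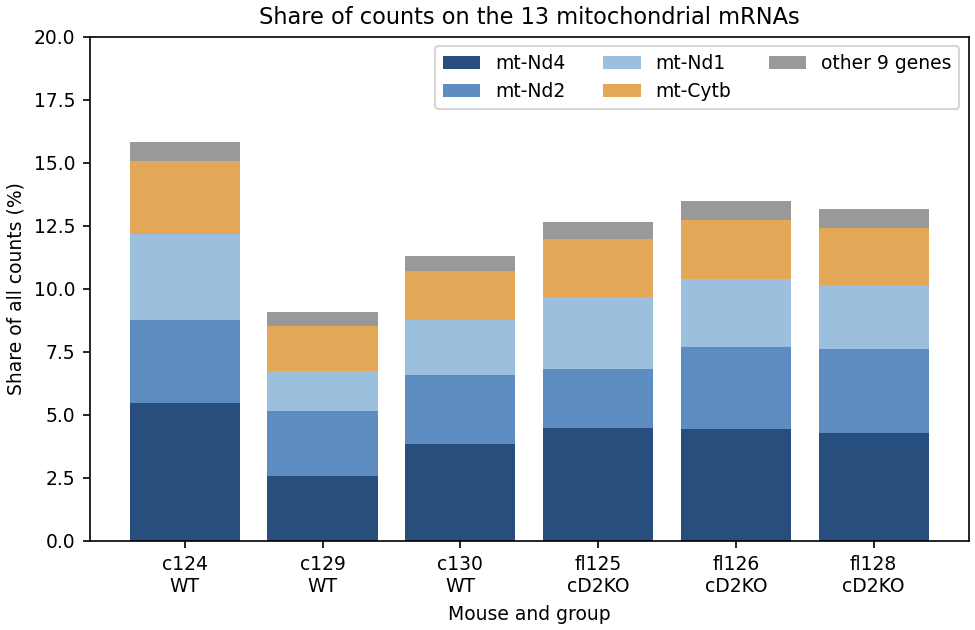
Share of all counts (vertical axis, percent) on the 13 mitochondrial mRNAs in each mouse (horizontal axis, with its group), with stacked segments for mt-Nd4, mt-Nd2, mt-Nd1, mt-Cytb and the other 9 genes. The 3 cD2KO mice lie between 12.6% and 13.5%, inside the WT range of 9.09% to 15.8%, and in every mouse 4 genes make up nearly the whole bar.

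Transcripts of complex I, the NADH dehydrogenase, made up most of the mitochondrial counts. Its 7 mRNAs took 77.3% to 80.1% of them in the 6 mice. mt-Cytb, the sole mitochondrial subunit of complex III, took 17.2% to 19.3%. The 3 core subunits of cytochrome c oxidase (complex IV) took 2.25% to 3.21%, and the 2 subunits of ATP synthase (complex V) took 0.0730% to 0.228%. mt-Co2, mt-Co3, mt-Atp6 and part of mt-Co1 are copied on chromosome 1. How reads that fit both places were counted is not given in the sources used here, so the shares of the complexes are uncertain. The groups overlapped for each complex. As a share of all counts, complex I was at 9.56% ± 2.81 in WT and 10.4% ± 0.378 in cD2KO mice, complex IV at 0.314% ± 0.0362 and 0.339% ± 0.0189, and complex V at 0.0140% ± 0.00593 and 0.0171% ± 0.00478 (SD, n = 3 each). Complex III ranged from 1.75% to 2.89% among WT and from 2.29% to 2.36% among cD2KO mice.

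The mRNAs fell into steps of very different level. Division by gene length takes the reads to cover the whole gene, which was not tested. Per kilobase of gene, and averaged over the 6 mice, mt-Nd4, mt-Nd2, mt-Nd1 and mt-Cytb were the highest, at 30580, 28519, 26754 and 19895 CPM per kb. Their ranges over mice overlapped from each to the next. A step below stood mt-Co1, the catalytic subunit of complex IV, at 1899 CPM per kb and mt-Nd5, a large membrane subunit of complex I, at 1783 CPM per kb, which overlapped each other and lay below mt-Cytb in every mouse. Next came mt-Co3, mt-Nd3, mt-Atp6, mt-Nd6 and mt-Co2, at 317, 267, 224, 217 and 160 CPM per kb, and neighbours in this group also overlapped. mt-Atp8 followed at 22.5 CPM per kb and mt-Nd4l at 2.58 CPM per kb, each without overlap with the one above it. No tRNA gene lies between mt-Nd4l and mt-Nd4 or between mt-Atp8 and mt-Atp6. Their values are thus levels of genes, not of RNAs shown to be separate. mt-Nd4l had 7, 0 and 0 counts in c124, c129 and c130, against 4, 1 and 2 counts in the libraries labelled fl125, fl126 and fl128, so that it was at or under 3 counts in 4 of 6 mice and was not tested. The plot of levels by mouse shows these steps in both groups.

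**Figure D2:**
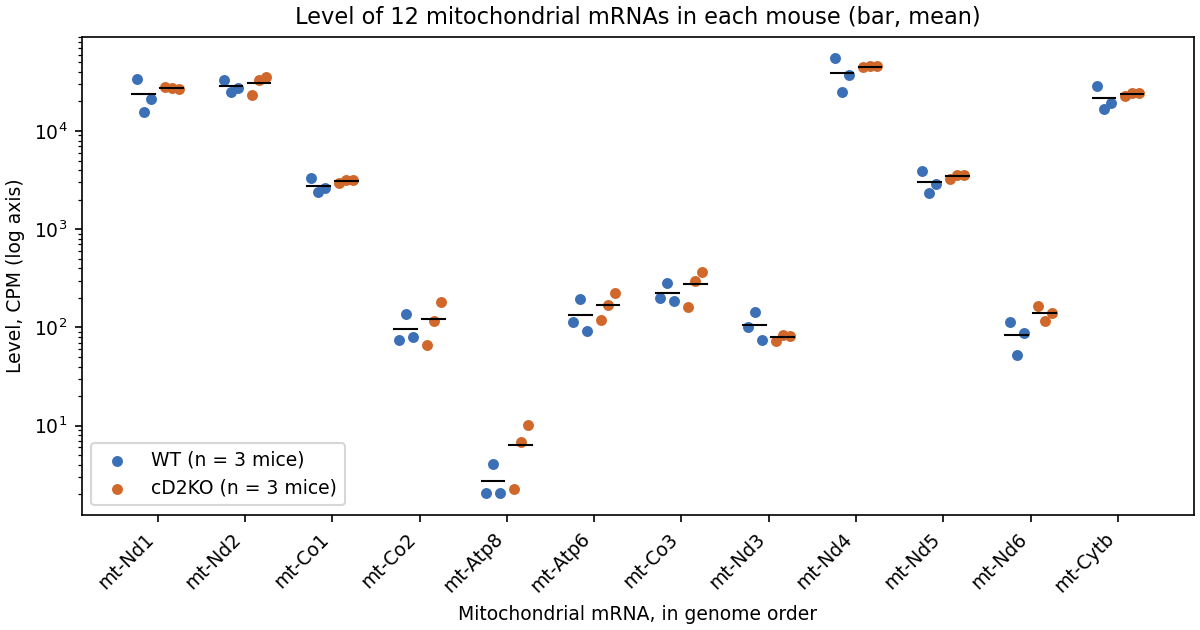
Level in CPM (vertical log axis) of 12 mitochondrial mRNAs in genome order (horizontal axis), with a point for each of 3 WT and 3 cD2KO mice and a bar for the group mean. mt-Nd4l, which had 0 counts in c129 and c130, is left out. mt-Nd1, mt-Nd2, mt-Nd4 and mt-Cytb lie at 15544 CPM or above in every mouse, and the cD2KO points of mt-Nd4 lie within the spread of the WT points.

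The genes that were low per kilobase were largely those copied on chromosome 1. Of all 75-base windows of mt-Co2, mt-Atp6, mt-Co3, mt-Nd3 and mt-Nd4l, 99.5%, 99.5%, 99.9%, 97.8% and 98.7% occurred unchanged in an annotated nuclear transcript. The figure was 61.5% for mt-Nd4 and 39.8% for mt-Co1, 5.71% for mt-Nd2 and 1.66% for mt-Nd5, and 0% for mt-Nd1, mt-Cytb, mt-Nd6 and mt-Atp8. Over the last 300 bases alone, mt-Nd4 had no such window and mt-Co1 had 100%. mt-Nd5, mt-Nd6 and mt-Atp8 were thus low with few copied windows or none. Of the 204 bases of mt-Atp8, the 43 shared with mt-Atp6 lie in a copied stretch. The other 161 lie among the 233 bases between the copied parts of mt-Co2 and mt-Atp6, and on chromosome 1 the copies of these genes are also 233 bases apart, with no copy of mt-Atp8 annotated there. The 6 mRNAs between mt-Co1 and mt-Nd4, which are mt-Co2, mt-Atp8, mt-Atp6, mt-Co3, mt-Nd3 and mt-Nd4l, made up 0.309% to 0.873% of the mitochondrial counts. Reads were aligned at the default settings of STAR, but how reads that fit both places were counted is not given in the sources used here, and the part of the copies in these low levels was not tested. Levels of these genes are therefore given as uncertain.

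**Figure D3:**
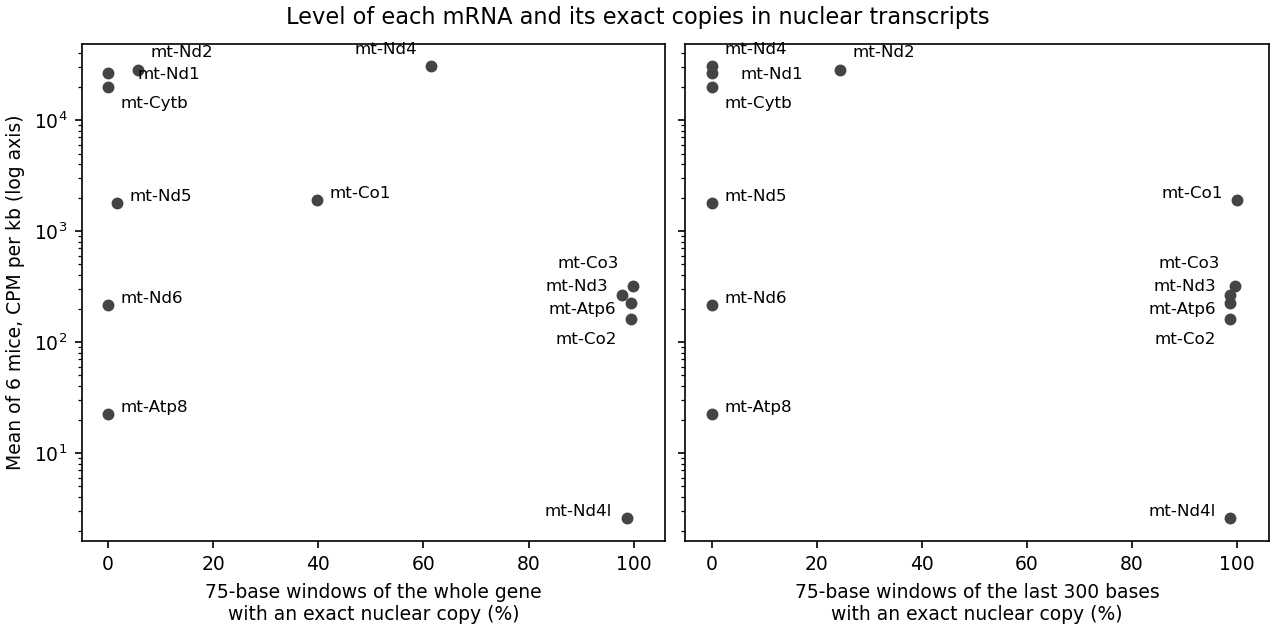
Mean level over 6 mice in CPM per kb (vertical log axis) of each of the 13 mRNAs against the percentage of its 75-base windows with an exact copy in a nuclear transcript (horizontal axes), for the whole gene (left) and for its last 300 bases (right). The 5 genes copied almost in full lie at 317 CPM per kb or below, and mt-Nd4 moves from 61.5% on the left to 0% on the right.

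Between the WT and cD2KO libraries, mt-Nd6 alone of the mitochondrial mRNAs passed the threshold, an unadjusted p under 0.05, with the higher level in cD2KO. This was 1 of 12 mRNAs tested, where 5.34% of all 11633 genes tested were higher in cD2KO mice by the same rule, and 0 of 12 were lower, where 6.62% of all genes were. A count of 1 of 12 is near that background and says little of the mRNAs as a group. No mitochondrial mRNA had an adjusted p under 0.05 in edgeR's quasi-likelihood test with Benjamini-Hochberg adjustment, and 0.0086% of all genes did. Log2 fold changes were above 0 for 11 of the 12 mRNAs and for 48.1% of all genes. Their median was 0.21, against -0.02 over all genes tested. It moved with single mice, to 0.07 without c129, 0.35 without c124 and 0.11 without fl128, when 8 of 11 tested were above 0. All but mt-Nd6 come from precursors of the heavy-strand promoter, and all were measured in the same libraries, so the 12 mRNAs are not independent of each other.

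mt-Nd6 (ENSMUSG00000064368) encodes a membrane subunit of complex I and lies on the minus strand of the mitochondrial chromosome of mm10, from 13552 to 14070. Its level was 113, 52.0 and 88.1 CPM in c124, c129 and c130, against 166, 116 and 140 CPM in the libraries labelled fl125, fl126 and fl128. All cD2KO mice were above all WT mice, as was the case for 8.05% of all genes tested, although fl126 was only just above c124. The log2 fold change was 0.73 (SE 0.26, unadjusted p = 0.0148, adjusted p = 0.273, edgeR's quasi-likelihood test with Benjamini-Hochberg adjustment). It rested in part on c129, without which it was 0.50 and did not pass (edgeR, unadjusted p = 0.0511), and without the library labelled fl125 it was 0.63 (edgeR, unadjusted p = 0.0379). Beside the other mRNAs of the same mouse, which leaves out the scaling of the libraries, mt-Nd6 had 0.710, 0.593 and 0.793 counts per 1000 heavy-strand counts in c124, c129 and c130, against 1.32, 0.838 and 0.998 in the libraries labelled fl125, fl126 and fl128. The groups again did not overlap, and the difference in the mean log2 ratio was 0.58 (two-sided exact permutation test, p = 0.1, the smallest that 3 mice against 3 allow). Set against mt-Nd5, which it meets end to end, mt-Nd6 had 28.8, 22.2 and 30.8 counts per 1000 in WT and 51.0, 32.1 and 39.5 in cD2KO mice. The use of strand in counting is not given in the sources used here, so that reads of mt-Nd6 and reads of the opposite strand at the same place cannot be told apart.

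mt-Nd3, a small membrane subunit of complex I, was the single mRNA with a log2 fold change below 0. Its level was 101, 144 and 73.8 CPM in c124, c129 and c130, against 72.9, 82.9 and 82.7 CPM in the libraries labelled fl125, fl126 and fl128. The groups overlapped, with c129 above all other mice. The log2 fold change was -0.42 (SE 0.24, unadjusted p = 0.104, adjusted p = 0.526, edgeR's quasi-likelihood test). It was -0.11 without c129 and -0.62 without c130, where it passed the threshold (edgeR, unadjusted p = 0.0252). As a share of the 13 mRNAs it was at 0.0633%, 0.165% and 0.0664% in c124, c129 and c130, against at 0.0579%, 0.0600% and 0.0590% in cD2KO mice. The groups did not overlap in this share (two-sided exact permutation test, p = 0.1, the smallest possible), though c124 and c130 lay close to the cD2KO mice. Of the 13 shares, those of mt-Nd6 and mt-Nd3 were the 2 that did not overlap between the groups, 1 in each direction. Over all genes tested, the CPM of 8.05% (937 of 11633) lay above all WT mice in every cD2KO mouse, and that of 1168 lay below. By CPM, 1 of the 12 tested mRNAs, mt-Nd6, lay above and 0 lay below, which is near that background. No background was computed for shares within the 13 mRNAs, so the 2 shares cannot be set against one. mt-Nd3 is among the genes copied on chromosome 1.

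**Figure D4:**
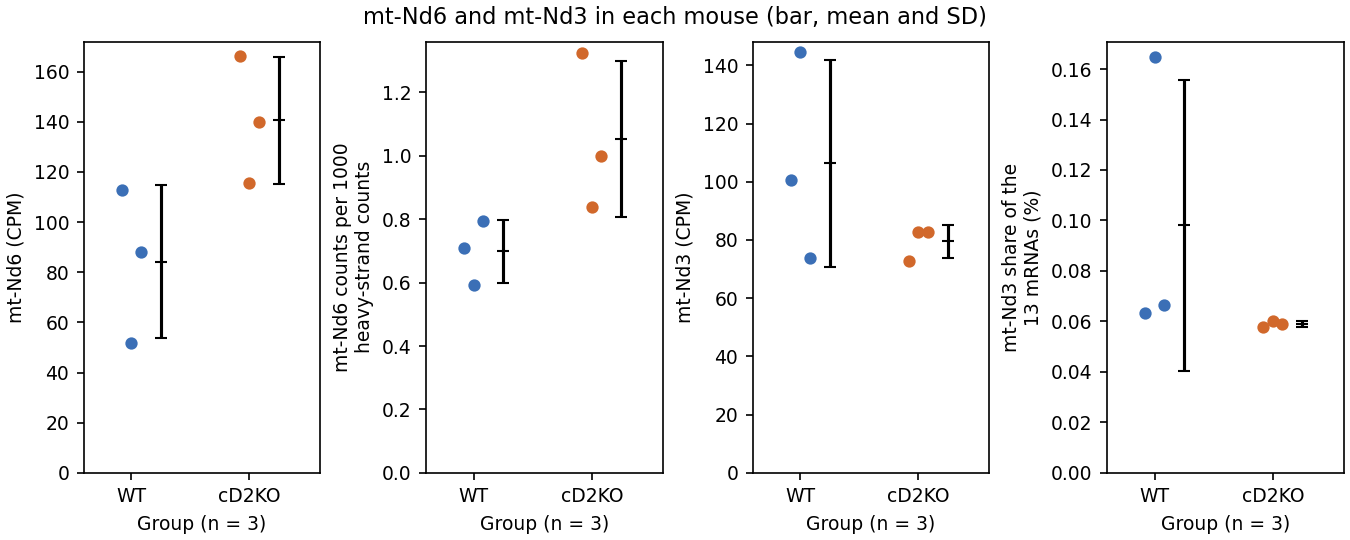
mt-Nd6 and mt-Nd3 in each mouse of the WT and cD2KO groups (horizontal axes, n = 3 each), as levels in CPM and relative to the other mitochondrial mRNAs (vertical axes, from 0), with points for mice and bars for the mean and SD. For mt-Nd6 all cD2KO mice lie above all WT mice on both scales, and the mean of mt-Nd3 in WT mice is raised by c129, at 144 CPM against 73.8 and 101 CPM.

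The 3 most abundant complex I mRNAs and mt-Cytb differed by less than the spread of the WT mice. mt-Nd4 was at 54713, 24903 and 37585 CPM in c124, c129 and c130, against at 44487, 45573 and 45577 CPM in the libraries labelled fl125, fl126 and fl128. The cD2KO mice lay between the WT mice, with c129 lowest and c124 highest of all. The log2 fold change was 0.21 (SE 0.27, adjusted p = 0.827, edgeR), and without c129 it was -0.0087. mt-Nd1 and mt-Cytb had the same order of mice at the extremes, with c129 lowest and c124 highest, and log2 fold changes of 0.22 (SE 0.27) and 0.13 (SE 0.24). Both rested on single WT mice. Without c124 that of mt-Nd1 was 0.58 and passed the threshold (edgeR, unadjusted p = 0.0348, adjusted p = 0.366) and that of mt-Cytb was 0.40, while without c129 they were 0.0072 and 0.0058. mt-Nd2 was at 33278, 24795 and 27072 CPM in the WT group, against 23376, 33287 and 35805 CPM in cD2KO mice, with the library labelled fl125 lowest, and its log2 fold change was 0.12 (SE 0.23). The coefficient of variation of mt-Nd4 was 38.3% among WT and 1.39% among cD2KO mice, and whether the spread differed was not tested.

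The remaining mRNAs overlapped between the groups. mt-Co1 ranged from 2396 to 3301 CPM and mt-Nd5 from 2341 to 3911 CPM over the 6 mice, with log2 fold changes of 0.15 (SE 0.20) and 0.19 (SE 0.22). mt-Co2, which carries the copper site that takes electrons from cytochrome c, was at 73.9, 137 and 79.7 CPM in c124, c129 and c130, against at 66.9, 116 and 183 CPM in the libraries labelled fl125, fl126 and fl128. mt-Co3 and mt-Atp6, the proton channel subunit of ATP synthase, shared with mt-Co2 that c129 was highest among the WT and fl128 among the cD2KO mice. Their log2 fold changes were 0.34 (SE 0.36) for mt-Co2, 0.31 (SE 0.28) for mt-Co3 and 0.35 (SE 0.29) for mt-Atp6. mt-Atp8, a short accessory subunit of ATP synthase, had 8, 11 and 6 counts in WT and 5, 20 and 32 counts in cD2KO mice, and its log2 fold change of 1.25 had the widest error (SE 0.68, unadjusted p = 0.0872, adjusted p = 0.503, edgeR). The summed level of the 6 mRNAs between mt-Co1 and mt-Nd4 was 491, 766 and 433 CPM in c124, c129 and c130, against 424, 669 and 870 CPM in the libraries labelled fl125, fl126 and fl128. The 12 muscle fibre markers summed to 4055, 5573 and 2491 CPM and 4399, 5120 and 8578 CPM in the same mice. The 5 erythroid markers summed to 12589, 16672 and 10693 CPM and 3437, 12917 and 22422 CPM, which is the same order of mice as for these mRNAs. fl128 and c129 were highest and second highest in each of these sums. The sums of the other marker lists had other orders. For example, c129 was lowest for mural cell markers, at 5514 CPM, and fl125 was highest for muscle stem cell markers, at 3327 CPM. The parts of muscle fibre and erythroid RNA in the counts of these mRNAs were not tested.

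**Figure D5:**
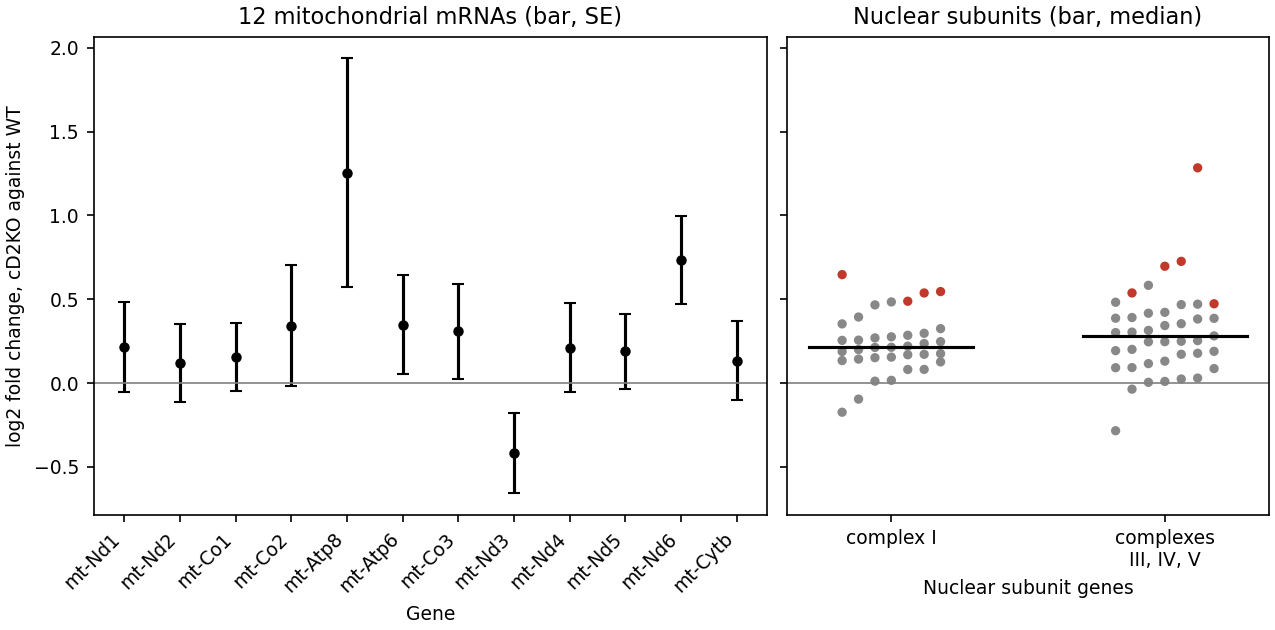
Log2 fold change of cD2KO against WT (vertical axes) for the 12 mitochondrial mRNAs tested, with the SE (left), and for the nuclear subunit genes of complex I and of complexes III, IV and V, with a bar for the median and red points for an unadjusted p under 0.05 (right). Both medians of the nuclear genes, 0.22 and 0.28, and 11 of the 12 mitochondrial values lie above 0.

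The nuclear partners of these mRNAs were examined with the same fit. Of the 36 nuclear subunits of complex I, all were tested and 4 were higher in cD2KO mice, with none lower, where 5.34% and 6.62% of all genes were. The median log2 fold change was 0.22, and 34 of 36 were above 0, as were 48.1% of all genes. The 3 with the smallest p were Ndufb7 (0.65, SE 0.23), Ndufv1, the subunit that binds NADH (0.54, SE 0.20), and Ndufa11 (0.55, SE 0.22), with adjusted p of 0.270, 0.293 and 0.359 in edgeR's quasi-likelihood test. Of the 41 measured nuclear subunits of complexes III, IV and V, 5 were higher and none lower, beside the same 5.34% and 6.62% of all genes. Their median was 0.28, with 39 of 41 above 0, beside 48.1% of all genes. Cyc1, the cytochrome c1 of complex III, rose from 152.7, 125 and 121 CPM in c124, c129 and c130 to 161, 215 and 284 CPM in the libraries labelled fl125, fl126 and fl128, without overlap of the groups, as for 8.05% of all genes (log2 fold change 0.73, SE 0.23, unadjusted p = 0.00628, adjusted p = 0.191, edgeR). Uqcrc1 of complex III (0.54, SE 0.23) and Cox4i2, an isoform of a complex IV subunit (1.28, SE 0.49), rose by unadjusted p alone (edgeR, adjusted p = 0.379 and 0.380). These counts rested on single mice. The subunits and the 3 lists that follow had 10 higher members of 140 tested together, 34 of 141 without the library labelled fl125 and 2 of 137 without fl128. Over all genes tested, 621 of 11633 were higher, 933 of 11769 without fl125 and 402 of 11634 without fl128. Per mouse, the nuclear subunits of complex I took 0.762%, 0.743% and 0.727% of all counts in WT and 0.720%, 0.894% and 1.02% in cD2KO mice, so that the library labelled fl125 was lowest and the groups overlapped. All 12 muscle fibre markers, 7 of 10 mural cell markers and 8 of 10 muscle stem cell markers also had log2 fold changes above 0. Of the other markers tested, 0 of 12 immune, 2 of 9 endothelial, 2 of 8 fibroadipogenic progenitor, 4 of 7 Schwann cell and 2 of 5 erythroid markers did. The part of these cell types in the values of the subunits was not tested.

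Of the genes that transcribe, replicate and process the mitochondrial genome, few passed the threshold, which does not show that the rest were unchanged. Of 22 genes of transcription and replication, 14 were tested and the others were below the minimum count. None of the 14 passed the threshold in either direction, where 5.34% of all genes were higher and 6.62% lower. Their median log2 fold change was 0.08. Polrmt, the mitochondrial RNA polymerase, ranged from 21.5 to 27.0 CPM among WT and from 26.5 to 29.6 CPM among cD2KO mice. Tfam, which packs mitochondrial DNA and starts its transcription, was at 19.7 ± 4.21 and 17.4 ± 3.19 CPM (SD, n = 3 each). Polg, the DNA polymerase (log2 fold change 0.10, SE 0.23), and Twnk, the helicase (-0.29, SE 0.50), also did not pass. Tfb2m, the partner of Polrmt at promoters, was below the minimum for testing. So was Tefm, named here after its values were seen, at 3.61, 5.57 and 3.48 CPM in c124, c129 and c130. It had 1.37, 1.38 and 2.53 CPM in the libraries labelled fl125, fl126 and fl128, near the floor. The groups did not overlap, as for 1168 of 11633 genes tested that lay below all WT mice. Of 38 tested genes of RNA processing and stability, 1 was higher and 1 lower, near those shares, with a median of -0.01. Mto1, a tRNA-modifying enzyme, rose by 1.26 (SE 0.53) and Fastkd1, a mitochondrial RNA-binding protein, fell by 1.64 (SE 0.70) on the log2 scale, with adjusted p of 0.375 and 0.379 in edgeR's quasi-likelihood test. Lrpprc, which stabilises the heavy-strand mRNAs, had a log2 fold change of 0.01 (SE 0.22). Of 11 tested regulators of mitochondrial biogenesis, none passed, beside the same shares of all genes. The coactivators Ppargc1a (-0.13, SE 0.46) and Ppargc1b (-0.11, SE 0.33) and the factor Nrf1 (0.08, SE 0.30) had values near 0. Thra, a thyroid hormone receptor named here after its values were seen, was at 343, 306 and 324 CPM in c124, c129 and c130, against 409, 447 and 415 CPM in the libraries labelled fl125, fl126 and fl128. The groups did not overlap, as for 8.05% of all genes, and its log2 fold change was 0.39 (SE 0.18, unadjusted p = 0.0556, adjusted p = 0.436, edgeR's quasi-likelihood test). It passed the threshold in DESeq2's Wald test (unadjusted p = 0.0328, adjusted p = 0.376).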

How the data were processed

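Sorted qMuSCs of 3 WT and 3 cD2KO mice gave a library for each mouse. The values the authors deposited are raw counts per gene, as whole numbers that were not normalized, from reads aligned to mm10. The submitters' processing notes name bcl2fastq, STAR 2.6.0a and HTSeq 0.9.1, and the study's methods give default settings for STAR. The annotation, the use of strand, the read length, the counter's options for reads that align to several places and any removal of PCR duplicates are not given in the sources used here. Groups were taken from the genotype labels, which give no sex, batch or pairing. All 6 columns of counts belonged to these mice (0 others).

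Members, symbols and sequences came from GENCODE M21, in which 31011 of 31053 gene identifiers were found. Copies were sought with blastn 2.17.0 among annotated transcripts (mRNA genes against all nuclear genes), and exact matches in windows of 75 bases on both strands. The nuclear genome itself was not searched.

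The fit held the 11633 genes whose mean count, after scaling by DESeq2 size factors, exceeded 10. It used edgeR 4.0.16 under R 4.3.3 (TMM factors, robust quasi-likelihood F test), with the 6 mice and no covariate. Benjamini-Hochberg adjustment covered every gene tested, and the threshold was an unadjusted p under 0.05. Two-sided exact permutation tests served for ratios and shares of single genes. Sums over several members were given no p, and no p was adjusted over the members alone, although the design had planned both.

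All mRNAs were named, with Dio2, from each pathway list, up to 3 genes per direction that passed the threshold, taken by p, and 9 regulators fixed by name. The members and lists were chosen with earlier results of these data known. The alternatives were DESeq2 1.42.0, voom in limma 3.58.1, other scalings, other minimum counts, non-robust estimation, an adjusted threshold, another denominator and leaving out each mouse in turn. The fit was tested on simulated data before use.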

Additional observations from a re-analysis of the deposited data

How the results depend on the processing

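WT replicates 1, 2 and 3 are c124, c129 and c130, and cD2KO replicates 1, 2 and 3 are fl125, fl126 and fl128. Under the other tests, scalings, minimum counts and non-robust estimation, 1 mitochondrial mRNA was higher and 0 were lower in each. mt-Nd6 passed in 16 of all 17 fits, those without a mouse included. With an adjusted p under 0.05 as the threshold, 0 members were higher (edgeR). Without a minimum count the adjusted p of mt-Nd6 was 0.0358 (edgeR), where 510 genes in all passed it, and DESeq2's Wald test passed 276 genes, against 1 in the edgeR fit as reported. With single mice left out, the members higher ranged from 1 to 4 (4 without fl125, which were mt-Co2, mt-Atp8, mt-Co3 and mt-Nd6, and 2 without c124, which were mt-Nd1 and mt-Nd6) and those lower from 0 to 1 (mt-Nd3 without c130). Without c129 the member that passed was mt-Atp6, not mt-Nd6. Over all 11493 to 11769 genes tested with single mice left out, 402 to 933 were higher and 399 to 874 lower. The shares within the 13 mRNAs that did not overlap ranged from 2 to 4. The log2 fold change reversed to -0.0028 for mt-Nd2 and to -0.077 for mt-Co2 without fl128, and to -0.0087 for mt-Nd4 without c129. Over these omissions it ranged from -0.0028 to 0.32 for mt-Nd2, from -0.077 to 0.70 for mt-Co2 and from -0.0087 to 0.53 for mt-Nd4.

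Over the 5 pathway lists, 10 genes were higher and 1 was lower. Scaling to the total count gave 6 and 2, a minimum mean of 50 gave 0 lower, no minimum gave 18 and 2, and the adjusted threshold gave 0 and 0 (edgeR). With single mice left out, 2 to 34 were higher and 0 to 1 lower, where 402 to 933 and 399 to 874 of all genes were. Scaling to the total count moved the split over all genes from 621 higher and 770 lower to 439 and 953, with the median log2 fold change at -0.09. Of the regulators of biogenesis, 1 (Thra) was higher under DESeq2's Wald test, limma voom, DESeq2 size factors and without fl125. The cause of these changes was not tested. The counts of nuclear copies could not be added, since none of the copies had a row among the counted genes. No paired analysis was possible because the mice of the groups share no number in the labels. Counts were few for mt-Nd4l, with 0 to 7 per mouse, and for mt-Atp8, with 5 to 32, and the cause was not tested.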

Other observations

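The mRNAs of complex I did not keep a fixed ratio to each other between mice. mt-Nd1 had 1027, 627 and 788 counts per 1000 of mt-Nd2 in c124, c129 and c130, against 1209, 826 and 748 in the libraries labelled fl125, fl126 and fl128. mt-Nd4 had 1644, 1004 and 1388 counts per 1000 of mt-Nd2 in the WT mice and 1903, 1369 and 1273 in the cD2KO mice. Both ratios share mt-Nd2 as the denominator, so their orders of mice are not independent. The groups overlapped in both ratios (two-sided exact permutation test, p = 0.6 for each, where the smallest possible is 0.1). Neither mt-Nd1 nor the last 300 bases of mt-Nd4 had an exact annotated nuclear copy over 75 bases, while 24.3% of the windows in the last 300 bases of mt-Nd2 had one.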
